A study of Saccharomyces cerevisiae with 42 samples.

Results

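Yeast that had used up its glucose was put back into fresh medium with myriocin (Myr), and the mRNA present after 1 h of growth was compared with the mRNA of the saturated culture at 0 h. The comparison took 6 of the 42 libraries of the series, 3 from Myr cultures at 1 h and 3 from Myr cultures at 0 h, and all yeast genes of the deposited table. The spike-in RNAs were left out as genes. Where a gene's change with Myr is set against its change without the drug, a further 6 libraries were used, 3 from vehicle cultures at 1 h and 3 from vehicle cultures at 0 h.

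All 4 groups were prototrophic BY4741 cells of mating type MATa. BY4741 lacks HIS3, LEU2, URA3 and MET15, and the plasmid pHLUM gave back the ability to grow without the nutrients these genes provide. Cells of an overnight saturated culture were diluted to an A600 of 0.15 in 200 ml of synthetic medium at 30°C. The Myr cultures held 700 ng/ml Myr in 0.3% ethanol, and the vehicle cultures 0.3% ethanol alone. RNA at 1 h therefore came from cells that had met both fresh medium and the drug, and Myr 1 h against Myr 0 h alone cannot tell these apart. All hours of a replicate came from 1 flask, but the columns carry a letter and no replicate number, so the libraries were taken as 3 separate samples of each group. P-values measure only the spread between samples within a group, estimated for each gene over all 42 libraries of the series.

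Myr binds serine palmitoyltransferase, the enzyme that joins serine and palmitoyl-CoA in the first step of sphingolipid synthesis. When yeast meets fresh glucose after a saturated phase, protein kinase A and TORC1 are known to become active. These kinases favour the genes of ribosome synthesis and hold back the stress regulators Msn2 and Msn4, while glucose represses genes for the use of other carbon sources. In a saturated culture, cells respire ethanol, store trehalose and glycogen, and recycle their proteins through the vacuole.

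Values are TPM, transcripts per 1000000, in which every library adds to the same total, so each value is a share of its library and allows for transcript length. Per-library values are given for libraries A, B and C in that order, and for A, B and D in the vehicle 0 h group. Fold changes are differences of log2(TPM + 1) between groups, which understates the change of genes near 1 TPM. They were fitted with limma to all 42 libraries at once, and calls were made where p, adjusted after Benjamini and Hochberg over 6006 genes, was under 0.05. These genes averaged 1 TPM or more across the 12 libraries of both hours and treatments. Of 6106 yeast identifiers, 100 did not pass this minimum, and 41 were listed at 0 in all 6 Myr libraries. Read counts are not used here, so the depth is unknown and precision comes from the replicates alone.

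The share of spike-in RNA was lower at 1 h. Spike-ins took 3230, 3604 and 5003 TPM in Myr 1 h libraries, against 12868, 14504 and 10001 TPM in Myr 0 h libraries. Because TPM are shares, the zero point of a fold change depends on the scale. The median log2 fold change over all genes was -0.49 on TPM as deposited. With the median ratio of each library to the average library set to 0 (median centring) it was -0.045, and it was 1.142 when libraries were scaled to equal spike-in signal (spike-in scaling). Whether spike-ins were added per cell or per amount of RNA is not given in the sources used here. Changes below are on TPM as deposited and are to be read against the median of -0.49, with the other scales beside each group of genes whose direction they turn.

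On this scale 1629 genes rose at 1 h, 27.1% of those tested, and 3354 fell, 55.8%. Of these, 786 rose at least 2-fold (13.1% of those tested) and 2074 fell at least 2-fold (34.5%), while 1023 genes were not called. After median centring 2484 genes rose and 2669 fell, and after spike-in scaling 4080 rose and 867 fell. The falls ran further than the rises: 906 genes fell and 140 rose at least 4-fold, and 130 fell and 7 rose at least 16-fold. All 3 Myr 1 h libraries lay on one side of all 3 Myr 0 h libraries for 84.2% of genes. Libraries of the same hour correlated over genes at Pearson's r of 0.986 to 0.991, and libraries of different hours at 0.718 to 0.747 over 9 pairs.

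Markers were checked against the labels first. The summed TPM of 7 saturated-phase markers was 692 to 773 in Myr 1 h libraries, against 15238 to 15950 in Myr 0 h libraries. Within this set SNZ1, a gene of vitamin B6 synthesis, stood at 188, 199 and 180 TPM in Myr 1 h libraries, against 120.4, 153 and 190.5 TPM in Myr 0 h libraries, so its groups overlapped. The sum of 7 growth markers was 3924 to 4786 in Myr 1 h libraries, against 1252 to 1525 in Myr 0 h libraries, with the G1 cyclin CLN3 outside the pattern at a mean of 77.4 TPM at 1 h and 90.8 TPM at 0 h. Of other cell types, 4 MATalpha markers summed to 56.0 to 63.6 TPM in Myr 1 h libraries and 88.7 to 115.8 TPM in Myr 0 h libraries. The 6 sporulation markers summed to 28.2 to 31.8 TPM at 1 h and 37.0 to 39.9 TPM at 0 h, beside 17226 to 19070 TPM at 1 h and 9130 to 10372 TPM at 0 h for 6 MATa markers. Genes with a coding length under 400 nt held 29.5% to 32.06% of TPM in Myr 1 h libraries and 36.32% to 40.45% in Myr 0 h libraries. Library C stood slightly apart at both hours, with a median difference over genes of 0.178 to 0.197 on the log2 scale from libraries A and B, against 0.076 and 0.095 between A and B.

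The largest falls were of genes for making glucose from ethanol and acetate and of genes known from stationary phase. PCK1 (YKR097W, chromosome XI, 631152 to 632801 in R64), which encodes the phosphoenolpyruvate carboxykinase that commits carbon to gluconeogenesis, had 13.4, 9.02 and 7.37 TPM in Myr 1 h libraries, against 1652, 1617 and 1854 TPM in Myr 0 h libraries. Its log2 fold change was -7.32 (SE 0.30, adjusted p = 1.21e-21 from limma). The glyoxylate cycle genes ICL1 (isocitrate lyase) and MLS1 (malate synthase) had log2 fold changes of -6.77 and -6.78. SIP18, a desiccation protein gene, had 33.7, 30.6 and 38.4 TPM at 1 h, against 5921, 5303 and 3753 TPM at 0 h (log2 fold change -7.13, SE 0.40, adjusted p = 8.83e-18 from limma). The other 8 of the 12 largest falls were DPA10, PDC6 (a minor pyruvate decarboxylase), GRE1, SFC1 (the mitochondrial succinate-fumarate carrier), EGO4, JEN1 (the lactate permease), FBP1 (fructose-1,6-bisphosphatase) and SPG4, between -7.01 and -6.19. DPA10 and EGO4 were among the most abundant mRNAs of the saturated culture, at 15181, 12319 and 9431 TPM and at 18361, 17260 and 14899 TPM. At 1 h they stood at 101.5, 83.2 and 95.4 TPM and at 229, 184 and 212 TPM.

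Among the largest rises were glucose transporters, a threonine and serine degrading enzyme and a leucine synthesis gene. HXT1 (YHR094C), the low-affinity glucose transporter used at high glucose, had 218, 239.7 and 208 TPM in Myr 1 h libraries, against 11.9, 10.1 and 11.4 TPM in Myr 0 h libraries (log2 fold change 4.20, SE 0.14, adjusted p = 9.68e-24 from limma). HXT2, a transporter of higher affinity, had 263, 249 and 227 TPM at 1 h, against 23.9, 24.8 and 26.3 TPM at 0 h. GNP1, the glutamine permease, had 247, 251 and 233 TPM at 1 h, against 14.6, 11.5 and 13.3 TPM at 0 h. LEU1, the isopropylmalate isomerase of leucine synthesis, had 495, 499 and 387 TPM at 1 h, against 26.3, 24.9 and 27.8 TPM at 0 h. CHA1, which breaks down serine and threonine, had 813, 801 and 697 TPM at 1 h, against 79.8, 68.4 and 68.8 TPM at 0 h. The largest rises were taken only from genes in which all 1 h libraries lay above all 0 h libraries, so this separation follows from the choice. INA1, UTR2 (a cell wall chitin transferase) and AQR1 (a plasma membrane exporter of amino acids and short acids) rose by 4.65, 3.38 and 3.29. ANS1 had the highest log2 fold change, 4.91, and no role is given to it here. The rule for the largest rises also took SNR72, a small nucleolar RNA gene, and the small open reading frames YPL152W-A and YLR285C-A, each listed at 0 in 1 of the Myr 0 h libraries. SNR72 had 92.3, 89.8 and 113 TPM at 1 h, against 3.57, 12.5 and 0 TPM at 0 h. Libraries were made from polyadenylated RNA, which holds little of such RNAs, and these 3 changes rest on low values at 0 h.

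**Figure D1:**
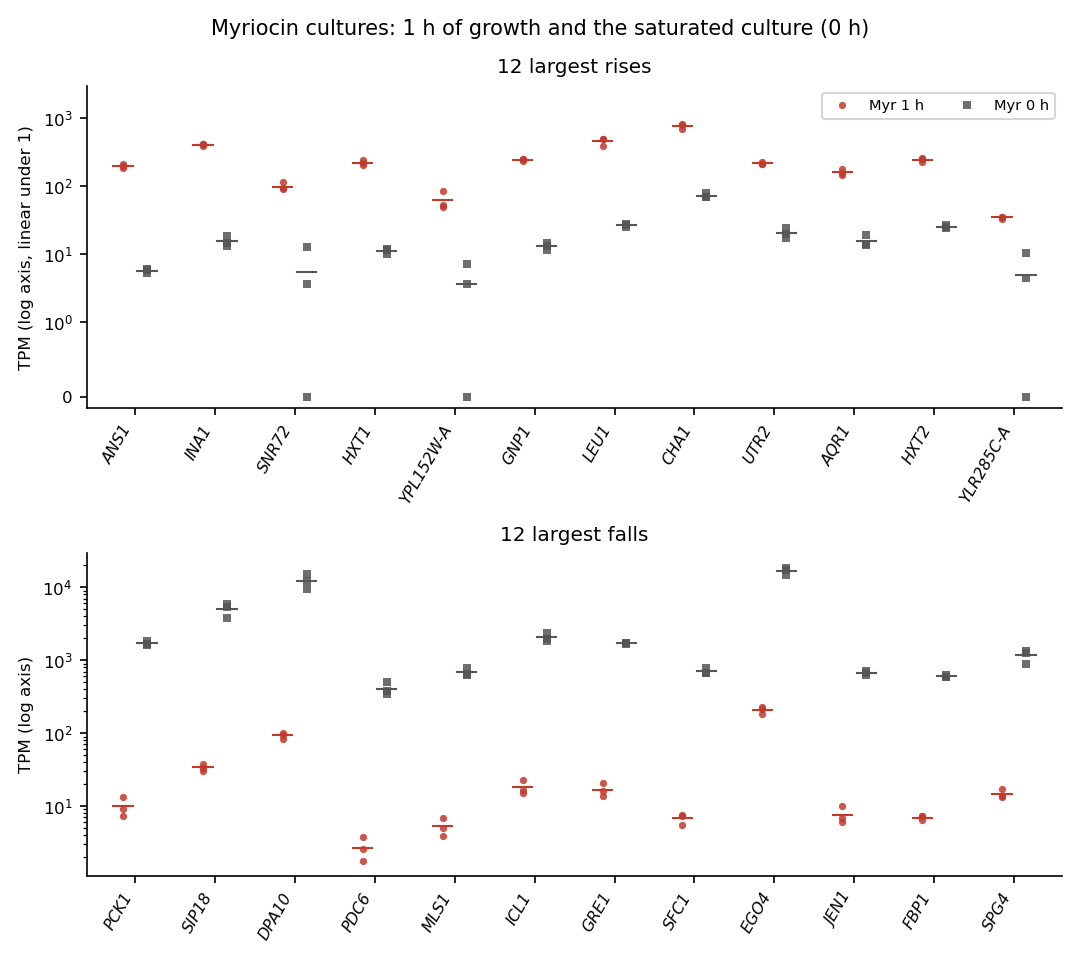
TPM of the 12 genes with the largest rises (top) and the 12 with the largest falls (bottom) in each Myr 1 h library (red circles) and each Myr 0 h library (grey squares), with the mean of 3 libraries as a line. The axes are logarithmic, the upper one linear under 1 TPM so that libraries listed at 0 can be drawn. Genes were chosen only among those in which the 2 hours do not overlap, and PCK1 stands at 7.37 to 13.4 TPM at 1 h and 1617 to 1854 TPM at 0 h.

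Genes of ribosome assembly rose together. Ribosome assembly factors fold, cut and modify the ribosomal RNA precursor in the nucleolus and export the subunits. Of 69 genes for 40S assembly 68 rose, with only NOP19 not called, and of 77 genes for 60S assembly 76 rose and LAS1 fell, against 27.1% of all genes tested that rose. The medians were 1.39 for the 40S and 1.31 for the 60S list, against -0.49 over all genes. Members of the 40S list together took 0.998% to 1.18% of TPM in Myr 1 h libraries, against 0.391% to 0.492% in Myr 0 h libraries. The 60S list took 1.51% to 1.77% at 1 h and 0.622% to 0.795% at 0 h. NOP56, a core protein of the box C/D snoRNPs that methylate rRNA, had 521, 519.5 and 489.6 TPM at 1 h, against 105, 111 and 143 TPM at 0 h (log2 fold change 2.09, SE 0.14, adjusted p = 5.89e-16 from limma). NOP1, the methyltransferase fibrillarin, had 1110.2, 1001 and 859 TPM at 1 h, against 209, 239.8 and 289 TPM at 0 h. The helicase gene HAS1, with a role in both subunits, had 317, 317 and 266 TPM at 1 h, against 62.1, 71.5 and 93.4 TPM at 0 h. NOP58, DHR2 and NOP7 rose by 2.00, 1.96 and 1.98. In these genes Myr 0 h library C was the highest and Myr 1 h library C the lowest of its group, so that C showed the smallest difference, without overlap.

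Stretches upstream of 3 ribosome assembly genes and 3 targets of Msn2 and Msn4 with large changes are shown with the matches to the motifs of these gene groups. The PAC element (searched as GATGAG) and the RRPE (searched as AAAATTTT) are known from promoters of ribosome assembly genes, and the STRE (searched as AGGGG) is the element bound by Msn2 and Msn4. The stretches below are the 150 bases that begin 250 bases before the start codon, 5′ to 3′ on the strand of the gene, from RefSeq's R64 sequence, with every match on either strand in capitals.
NOP56, chrXII:545847-545996, plus strand: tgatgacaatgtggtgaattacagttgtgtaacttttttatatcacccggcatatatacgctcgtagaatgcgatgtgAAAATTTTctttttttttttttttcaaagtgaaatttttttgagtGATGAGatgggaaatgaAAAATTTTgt
NOP1, chrIV:427114-427263, plus strand: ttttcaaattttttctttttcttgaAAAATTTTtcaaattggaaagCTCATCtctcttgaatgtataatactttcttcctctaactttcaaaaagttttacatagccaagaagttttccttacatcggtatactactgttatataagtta
HAS1, chrXIII:851692-851841, minus strand: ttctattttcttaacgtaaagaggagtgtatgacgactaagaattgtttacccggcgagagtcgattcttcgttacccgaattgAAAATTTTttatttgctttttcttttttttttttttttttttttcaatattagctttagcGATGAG
GRE1, chrXVI:129239-129388, minus strand: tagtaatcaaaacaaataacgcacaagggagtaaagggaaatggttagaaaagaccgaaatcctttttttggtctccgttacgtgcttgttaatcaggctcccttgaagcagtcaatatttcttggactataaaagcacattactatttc
HSP26, chrII:381780-381929, plus strand: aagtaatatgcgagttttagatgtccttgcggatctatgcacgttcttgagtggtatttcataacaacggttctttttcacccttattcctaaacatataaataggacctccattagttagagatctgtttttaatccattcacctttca
OM45, chrIX:93369-93518, plus strand: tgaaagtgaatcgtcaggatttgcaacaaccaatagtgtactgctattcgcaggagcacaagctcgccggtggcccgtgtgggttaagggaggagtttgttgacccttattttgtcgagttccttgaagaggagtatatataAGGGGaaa

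In the 3 assembly genes the RRPE and the PAC lay close to each other: at 172 and 127 bases before the start codon in NOP56, which held a second RRPE match at 110 bases, at 225 and 204 bases in NOP1, and at 166 and 106 bases in HAS1. OM45 had a STRE match at 108 bases, and GRE1 and HSP26 had none in these stretches, which says nothing of sequence outside them. Over windows of 250 bases before to 50 after the start codon, the PAC was in 91.3% of the 40S list and 85.7% of the 60S list, against 20.1% of the windows of all 5887 coding genes tested. The RRPE was in 78.3% and 74%, against 9.1% of all. Of the windows of genes that rose at least 2-fold, 39.3% held a PAC and 32% an RRPE, against 14.8% and 3.22% of genes that fell at least 2-fold and 18.9% and 7.46% of the rest. The STRE was in 34.5% of windows of genes that fell at least 2-fold, 11.7% of those that rose at least 2-fold and 15.8% of the rest. Ribosomal protein genes, which are driven by other factors, held the PAC in 9.88% (large subunit) and 12.3% (small subunit) of windows. A match is only a run of letters and was not tested as a site.

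Ribosomal protein genes took a large part of each library. Of 81 large-subunit genes 79 rose and of 57 small-subunit genes 57 rose, with medians of 1.92 and 1.91. The large-subunit list held 23.4% to 24.9% of TPM in Myr 1 h libraries, against 7.55% to 8.08% in Myr 0 h libraries, and the small-subunit list 17.6% to 17.8% at 1 h, against 4.75% to 5.20% at 0 h. RPP2B, a stalk protein, had 5799, 5402 and 5062 TPM at 1 h, against 970.2, 1021 and 1101 TPM at 0 h, a rise of 2.39 (SE 0.13, adjusted p = 1.05e-17 from limma). ASC1, a protein of the 40S head, had 1428, 1449 and 1370 TPM at 1 h, against 167, 176 and 204 TPM at 0 h. Most of these genes have a near-identical copy, so the split of reads within a pair is uncertain; RPL9A rose by 2.98, RPL7A by 2.56, and RPS9A and RPS9B by 2.78 and 2.67. RPL15B and RPL41B were not called. RPL41B had 12147, 10594 and 15693 TPM at 1 h, against 10060, 11905 and 10319 TPM at 0 h, and the groups overlapped. Its copy RPL41A, the most abundant mRNA in each Myr 1 h library, was called at 0.83 (adjusted p = 0.0188 from limma). That call was lost without the C library of either hour, with adjusted p = 0.0863 without Myr 0 h C and 0.0984 without Myr 1 h C.

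Other parts of the translation machinery rose as well. Of 14 genes for RNA polymerase I, which makes rRNA, 12 rose and RRN10 fell. Its largest subunit RPA190 had 113, 117 and 97.0 TPM at 1 h, against 20.7, 25.1 and 32.9 TPM at 0 h, and RPA12 rose by 2.08. Of 20 genes for RNA polymerase III, which makes tRNAs and 5S rRNA, 12 rose, among them RPC40 by 1.79 and RPC19 by 1.73, both shared with polymerase I. The 8 that fell encode subunits of the factors that bring the polymerase to its genes: TFC1, TFC3, TFC4, TFC6, TFC7 and TFC8 of TFIIIC, and BRF1 and BDP1 of TFIIIB. After spike-in scaling none of the 8 was called lower. Of 28 genes for tRNA modification and export 24 rose, TRM11 by 1.83 and NCL1 by 1.56, while TRM13 and MOD5 fell. All 19 cytosolic aminoacyl-tRNA synthetases rose, TYS1 for tyrosine by 2.35 and THS1 for threonine by 1.98. Of 38 translation factors 35 rose and TIF4632 and CAM1 fell. TEF4, an elongation factor subunit, had 777, 653 and 578 TPM at 1 h, against 98.0, 99.6 and 115 TPM at 0 h, and the recycling factor RLI1 rose by 2.30. TIF1, the helicase eIF4A, rose by 2.195 and has an identical protein partner in TIF2, so its own share is uncertain.

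Mitochondrial ribosomal protein genes went the other way on this scale. Of 70 genes for mitochondrial ribosomal proteins 64 fell and none rose, with a median of -0.90, which was -0.443 after median centring (48 fell, 5 rose) and 0.761 after spike-in scaling (none fell, 54 rose). RSM10 had 42.7, 46.8 and 37.0 TPM at 1 h, against 149.96, 154 and 153 TPM at 0 h. MRPS12 fell by 1.75, against -0.064 after spike-in scaling. The list was thus below the median of all genes on all 3 scales.

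Glucose uptake and glycolysis changed by isoform. Of 19 hexose transporter and sensor genes tested, HXT1, HXT2, HXT3 and STD1 rose and 15 fell, with a median of -1.11 (0.361 after spike-in scaling). HXT5, a transporter of slow-growing cells, had 10.7, 10.8 and 7.51 TPM at 1 h, against 403, 397 and 432 TPM at 0 h, and HXT6, of high affinity and nearly identical to HXT7, fell by 4.99. MTH1, a repressor of HXT genes that acts without glucose, fell by 3.42. Of 27 genes of glycolysis and fermentation, FBA1, ENO2, CDC19, PDC1, ADH1, ADH4 and PFK27 rose and 15 fell. ENO1 and TDH1, minor isoforms in cells growing on glucose, fell furthest after PDC6. TDH1 had 79.5, 66.8 and 84.3 TPM at 1 h, against 2762, 2708 and 2572 TPM at 0 h, and ENO1 52.1, 41.7 and 48.5 TPM at 1 h, against 2126, 2041 and 1931 TPM at 0 h. Both have close paralogs. The hexokinase gene HXK1 fell by 3.79, and HXK2, the isoform of growth on glucose, was not called. The list's median of -0.48 lay at the median of all genes, and was -0.01 after median centring and 1.214 after spike-in scaling. Its share of genes that fell was near the 55.8% of all genes tested.

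Genes for living on ethanol, acetate and fat were lower at 1 h. All 19 genes of gluconeogenesis, the glyoxylate cycle and acetate use fell (55.8% of all genes tested fell), with a median of -5.18, and each fell at least 2-fold. They held 0.0416% to 0.0463% of TPM at 1 h, against 1.01% to 1.20% at 0 h. Of 17 genes of the tricarboxylic acid cycle 16 fell, with a median of -3.38. MDH1, the mitochondrial malate dehydrogenase, had 21.5, 17.2 and 20.0 TPM at 1 h, against 655, 608 and 611 TPM at 0 h. SDH1, a succinate dehydrogenase subunit, fell by 4.71. All 39 nuclear genes of the respiratory chain and ATP synthase fell, with a median of -2.95, and held 0.735% to 0.78% of TPM at 1 h and 5.68% to 6.78% at 0 h. Within them CYC7, the cytochrome c isoform of low oxygen and stress, fell by 5.50, and NDI1, the NADH dehydrogenase, by 4.52. STF1, a stabiliser of the inhibited ATP synthase, had 91.7, 73.0 and 72.9 TPM at 1 h, against 3037, 3108 and 3303 TPM at 0 h. All 25 genes of peroxisomal fatty acid oxidation fell, PXA1 at -3.55 and MDH3 at -3.05. These 4 lists kept a negative median after spike-in scaling, between -3.60 for gluconeogenesis and -0.545 for peroxisomes.

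Reserve carbohydrate and stress genes fell. All 19 trehalose and glycogen genes fell, with a median of -3.28, among them the glycogen branching enzyme GLC3 at -4.58, the phosphatase regulator GAC1 at -4.58 and the phosphoglucomutase PGM2 at -4.29. Of 30 targets of Msn2 and Msn4 29 fell, each at least 2-fold, with a median of -3.66, and GPP2 was not called. The list held 0.405% to 0.44% of TPM at 1 h, against 4.98% to 5.76% at 0 h. HSP26, a small heat shock protein, had 180.2, 148 and 158 TPM at 1 h, against 7539, 6807 and 6430.1 TPM at 0 h, and changed by -5.41 on the log2 scale (SE 0.15, adjusted p = 6.62e-26 from limma). OM45, an outer mitochondrial membrane protein, had 22.2, 21.0 and 17.8 TPM at 1 h, against 823, 794 and 808 TPM at 0 h, and SPI1, a cell wall protein, fell by 4.67. The stretches printed above for GRE1, HSP26 and OM45 lie upstream of these genes, and 60% of the list's windows held a STRE, against 21.8% of all.

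Of 28 heat shock and chaperone genes 21 fell, HSP30 at -5.52, HSP104 at -4.30 and HSP42 at -4.11. The 5 that rose, SSB1, SSB2, SSE1, YDJ1 and HCH1, include the SSB pair, which binds new chains on the ribosome. The list's median was -1.61 and turned to 0.052 after spike-in scaling. Of 29 genes of oxidative stress defence 24 fell and GPX2, AHP1 and TRR1 rose, with a median of -1.75. The peroxidase genes GPX1 and PRX1 had log2 fold changes of -5.05 and -3.89. Of 30 genes known from stationary phase 26 fell, with a median of -3.13, and SPG3 and STM1 rose. SPG1 fell by 6.10. SNZ1 and its partner SNO1 were not called.

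Recycling genes were lower after 1 h. Of 37 autophagy genes 36 fell and ATG27 rose, with a median of -2.38. ATG8, the membrane anchor of the forming autophagosome, had 37.7, 30.1 and 28.8 TPM at 1 h, against 577, 556 and 663 TPM at 0 h, and ATG39, a receptor for nuclear membrane, fell by 5.95. Of 15 vacuolar hydrolases and inhibitors 14 fell, among them the protease PRB1 at -4.34 and the protease inhibitors PAI3 at -6.05 and PBI2 at -4.21. All 34 proteasome subunit genes fell, with a median of -1.14, which became -0.678 after median centring and 0.536 after spike-in scaling. PRE3 had 55.8, 52.3 and 50.4 TPM at 1 h, against 194, 189 and 213 TPM at 0 h, and PRE2 fell by 1.71. UBI4, the stress gene that encodes a chain of ubiquitin repeats, had 100.98, 92.7 and 92.3 TPM at 1 h, against 487, 456 and 532 TPM at 0 h (log2 fold change -2.35, SE 0.08, adjusted p = 4.1e-24 from limma). The ubiquitin genes fused to ribosomal proteins rose with the other ribosomal protein genes: RPS31 had 5983, 5933 and 6517 TPM at 1 h, against 1362, 1367 and 1313 TPM at 0 h, and RPL40A and RPL40B were also called. The repeats of these genes are near-identical in sequence, so reads may be split between them. The ubiquitin-conjugating enzyme genes UBC8, known for its part in the breakdown of fructose-1,6-bisphosphatase, and UBC5 had log2 fold changes of -4.91 and -2.80. The median of the 13 ubiquitin genes was -1.48 on TPM and 0.168 after spike-in scaling.

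Amino acid synthesis genes changed in both directions. Of 58 genes 25 rose and 19 fell, with a median of 0.05 that came to -0.02 without Myr 0 h library A. The branched-chain genes LEU9 and BAT1 rose by 2.69 and 2.65, and GDH3, a glutamate dehydrogenase of respiring cells, fell by 4.84. Of 32 sulfur and methionine genes 26 fell and MET31, SAM4 and SAH1 rose, with a median of -2.38. MET6, methionine synthase, had 31.2, 29.0 and 27.1 TPM at 1 h, against 270.4, 387 and 647 TPM at 0 h, so the 0 h libraries were themselves spread over a wide range. MET28, a transcription factor subunit of this pathway, fell by 4.18. The methionine permease MUP1 showed a like spread, with 98.0, 100.4 and 98.1 TPM at 1 h, against 219, 311 and 452 TPM at 0 h (log2 fold change -1.66, SE 0.21, adjusted p = 9.41e-09 from limma), and it was at 0.03 after spike-in scaling. Of 27 amino acid permeases 19 fell and BAP2, TAT1, TAT2, GNP1 and HIP1 rose. The general permease GAP1 and AGP1 stood at -3.43 and -3.37, and the list's median of -1.26 turned to 0.282 after spike-in scaling. GCN4, the activator of amino acid synthesis genes, which is mainly controlled at translation, had 1033, 1037 and 903 TPM at 1 h, against 1108, 1165 and 1219.6 TPM at 0 h. Its groups did not overlap but the change of -0.23 was not called (adjusted p = 0.0711 from limma), and it was called higher after median centring (0.237) and spike-in scaling (1.461). Of 34 genes of purine and pyrimidine synthesis 23 rose, with URA7 (CTP synthase) at 2.24, GUA1 (GMP synthase) at 2.16 and RNR1 (ribonucleotide reductase) at 2.60, and 8 fell, URA10 at -3.96.

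Of the 28 sphingolipid genes 7 rose, 15 fell and 6 were not called. These shares were near those of all genes tested, of which 27.1% rose and 55.8% fell. The median of -0.75 was close to that of all genes, and became -0.29 after median centring (12 higher, 14 lower) and 0.908 after spike-in scaling (18 higher, 4 lower). Both subunits of serine palmitoyltransferase, the target of Myr, rose. LCB1 had 107, 100.7 and 91.7 TPM at 1 h, against 64.3, 65.5 and 73.3 TPM at 0 h (log2 fold change 0.55, SE 0.12, adjusted p = 7.44e-05 from limma). LCB2 had 116, 119.6 and 106 TPM at 1 h, against 60.5, 58.6 and 63.0 TPM at 0 h (0.89, SE 0.08, adjusted p = 9.33e-12 from limma). The small activating subunit TSC3 had 722, 756 and 1044 TPM at 1 h, against 856, 828 and 655 TPM at 0 h, and the groups overlapped. TSC10, the next enzyme of the path, stood at 40.5, 42.5 and 30.9 TPM at 1 h and 37.9, 37.1 and 36.9 TPM at 0 h.

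The Orm proteins, which restrain serine palmitoyltransferase, differed from each other. ORM2 had 100.1, 96.9 and 83.5 TPM at 1 h, against 339.6, 355 and 369 TPM at 0 h (log2 fold change -1.92, SE 0.11, adjusted p = 1.84e-17 from limma), and was not called after spike-in scaling (-0.23). ORM1 had 49.7, 49.3 and 43.5 TPM at 1 h, against 33.0, 34.2 and 48.7 TPM at 0 h, and was called at 0.31 (adjusted p = 0.0125 from limma) although Myr 0 h library C lay above Myr 1 h library C. That call was lost without Myr 0 h library A (adjusted p = 0.113) or B (0.0819).

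Ceramide synthase genes rose slightly: LAG1 by 0.42 and LAC1 by 0.51, while the third subunit LIP1 had 72.7, 70.8 and 64.1 TPM at 1 h, against 143, 139.5 and 136 TPM at 0 h (-1.005, and 0.677 after spike-in scaling). AUR1, which makes inositol phosphorylceramide, had 153, 147 and 142 TPM at 1 h, against 78.9, 75.8 and 79.5 TPM at 0 h, and its partner KEI1 was not called at 0.06. Of the later enzymes, SUR1 and CSG2 of mannosyl transfer changed by -1.92 and -0.96 and CSH1 by -1.07, while IPT1 was not called at 0.04. After spike-in scaling CSG2 and CSH1 were called higher, at 0.726 and 0.517, and SUR1 was at -0.24. The hydroxylase SCS7 changed by -1.59, against 0.09 after spike-in scaling, and SUR2, the hydroxylase of the long-chain base, was not called at -0.22 but was called higher on both other scales (0.245 and 1.465).

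The mRNAs of enzymes that break down sphingolipids were lower on TPM. The ceramidase genes YPC1 and YDC1 fell the most of the list: YPC1 had 2.21, 1.77 and 2.70 TPM at 1 h, against 57.2, 53.5 and 55.2 TPM at 0 h, and YDC1 11.0, 9.85 and 9.79 TPM at 1 h, against 168, 170.2 and 161 TPM at 0 h. HFD1, the aldehyde dehydrogenase downstream of the lyase, fell by 3.70, and RSB1, known for moving long-chain bases out of the cell, changed by -2.10. These 4 genes were lower on all 3 scales. The lyase DPL1 had 21.2, 22.4 and 17.9 TPM at 1 h, against 72.8, 68.1 and 68.5 TPM at 0 h, a change of -1.73 that came to -0.08 after spike-in scaling. The kinases LCB4 and LCB5 and the phosphatase YSR3 changed by -0.97, -1.25 and -1.48 and turned to 0.687, 0.336 and 0.176 after spike-in scaling. The other phosphatase, LCB3, was not called at -0.18, against 0.267 after median centring and 1.466 after spike-in scaling. ISC1, a phospholipase that frees ceramide, changed by -0.53, against 1.089 after spike-in scaling. SVF1, which takes part in ceramide transport, rose by 0.57.

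**Figure D2:**
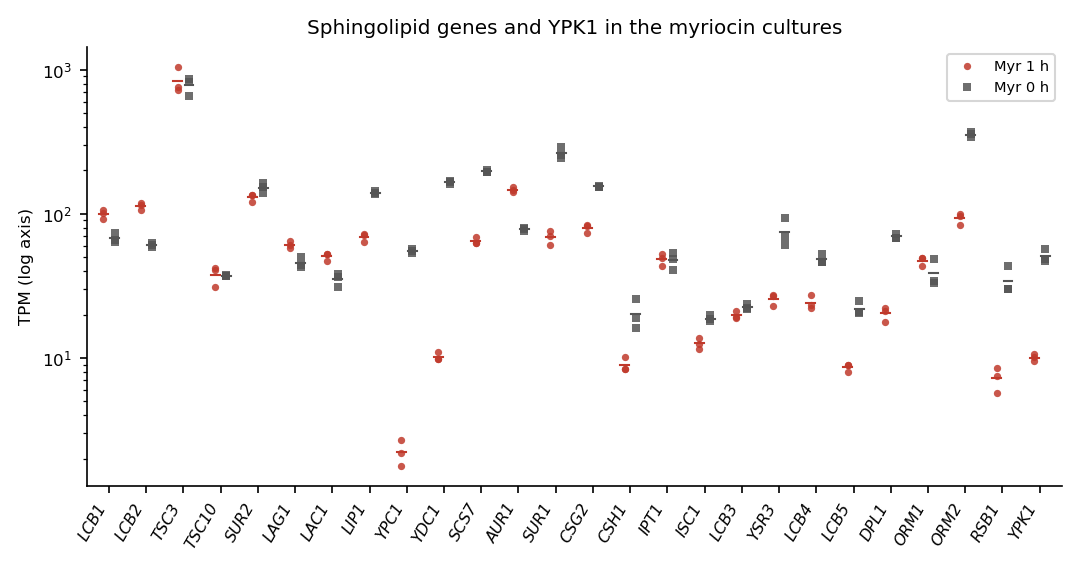
TPM (log axis) of sphingolipid genes and YPK1 in each Myr 1 h library (red circles) and each Myr 0 h library (grey squares), with means as lines. LCB1, LCB2 and AUR1 are higher at 1 h, and YPC1, YDC1, ORM2 and YPK1 lower; after spike-in scaling ORM2 is not called, at -0.23.

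The mRNAs of signalling genes around the plasma membrane were also lower on TPM. YPK1, the kinase that phosphorylates the Orm proteins, had 10.7, 10.1 and 9.50 TPM at 1 h, against 48.3, 46.9 and 57.3 TPM at 0 h (log2 fold change -2.22, SE 0.12, adjusted p = 1.6e-18 from limma), and its paralog YPK2 fell by 3.88. Of 27 genes of TORC2, Ypk and the eisosome 26 fell and SUR7 rose, with LSP1, an eisosome core protein, at -3.16 and NCE102, which acts upstream of the Ypk kinases, at -2.64. The list's median of -1.38 turned to 0.244 after spike-in scaling, with 8 genes called higher and 7 lower.

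Fatty acid elongation and desaturation genes changed in opposite directions. The elongases ELO3 and ELO2, which make the very long acyl chains of ceramide, rose: ELO3 had 559, 578 and 529.9 TPM at 1 h, against 56.6, 59.8 and 77.4 TPM at 0 h, and ELO2 had 167, 162 and 151.07 TPM at 1 h, against 24.4, 20.3 and 23.2 TPM at 0 h. The desaturase OLE1 had 500.04, 426 and 388 TPM at 1 h, against 2687, 3036 and 3830 TPM at 0 h. ELO3 and ELO2 were at 3.10 and 2.77 and OLE1 at -2.85 on the log2 scale. Of 17 genes of this path 5 rose and 9 fell, with a median of -0.24 that turned to 0.21 after median centring and 1.407 after spike-in scaling. Of 32 ergosterol genes 3 rose, ERG4 by 1.86 the most, and 19 fell, ERG28 at -2.96 the most, with a median of -0.49 (1.185 after spike-in scaling). Of 29 phospholipid genes 8 rose and 17 fell, with a median of -0.45, against 0.023 after median centring and 1.229 after spike-in scaling. INO1, inositol 3-phosphate synthase, had 39.8, 35.6 and 41.4 TPM at 1 h, against 294, 293 and 340.1 TPM at 0 h.

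Genes of mineral uptake split by mineral, beside 27.1% of all genes tested that rose and 55.8% that fell. Of 25 Pho4 targets 14 rose, PHO89, a sodium-phosphate cotransporter, by 2.40, and 6 fell, PHM8 at -3.62. Of 13 zinc genes 11 fell, the zinc sensor ZAP1 at -3.66 and the vacuolar exporter ZRT3 at -2.81, and ADH4 rose. The zinc list's median was -1.80, against -0.108 after spike-in scaling (5 higher, 6 lower). Of 25 iron genes 23 fell, the mRNA decay factor TIS11 at -4.14 and the siderophore transporters ARN2 and ARN1 at -3.72 and -3.37, and FRE4 and ISU2 rose. The iron list's median was -1.95, against -0.252 after spike-in scaling (7 higher, 10 lower).

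Genes of the G1 to S transition rose. CLB6, an S-phase cyclin, had 52.1, 54.5 and 40.5 TPM at 1 h, against 4.91, 4.89 and 6.601 TPM at 0 h (log2 fold change 2.95, SE 0.16, adjusted p = 1.81e-18 from limma). The G1 cyclins PCL2 and CLN2 rose by 2.02 and 1.78. Of 22 cyclin and G1 control genes 14 rose, with a median of 0.49. Of 36 replication genes 22 rose and ORC1, RFC2 and SLD3 fell, and POL30, the sliding clamp PCNA, had 186, 176 and 157 TPM at 1 h, against 39.4, 33.6 and 45.7 TPM at 0 h. Of 10 histone genes 3 rose and 7 fell, with a median of -0.68 that turned to 1.005 after spike-in scaling. HTB2 rose by 1.53 while HTA1, from the other pair of H2A and H2B genes, changed by -1.86, and reads of these near-identical copies may be split.

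Remaining groups were mixed, beside 27.1% of all genes tested that rose and 55.8% that fell. Of 39 cell wall genes 19 rose and 12 fell, with UTR2 at 3.38 and the wall protein PIR3 at -5.07. Of 11 glycerol genes 8 fell, the glycerol importer STL1 at -3.97 and GPD1 at -3.67, and GPP1 rose. Of 16 genes of protein folding in the endoplasmic reticulum 6 rose and 5 fell, with a median of 0.01 that came to -0.046, -0.016, -0.021 and -0.004 without Myr 0 h A, Myr 0 h B, Myr 1 h A and Myr 1 h B. Of 27 genes of protein kinase A, Rim15, TORC1 and Sch9 signalling 17 fell, among them MSN4 at -4.13 and the kinase subunit TPK2 at -3.94, and 6 rose, with a median of -1.06 (0.542 after spike-in scaling). Of 15 MATa and pheromone response genes 14 rose and ASG7 fell. The receptor STE2 had 374, 392.3 and 336 TPM at 1 h, against 79.6, 79.4 and 85.2 TPM at 0 h, and the protease BAR1 rose by 2.40. Of 5 MATalpha genes AFB1 rose and the agglutinin gene SAG1 and an alpha-factor gene fell, with a median of -0.35 (0.083 after median centring, 1.256 after spike-in scaling). Of 22 meiosis genes 5 rose and 10 fell, with a median of -0.27 that turned to 0.069 after median centring and 1.079 after spike-in scaling, and the inducer IME1 fell by 2.82.

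**Figure D3:**
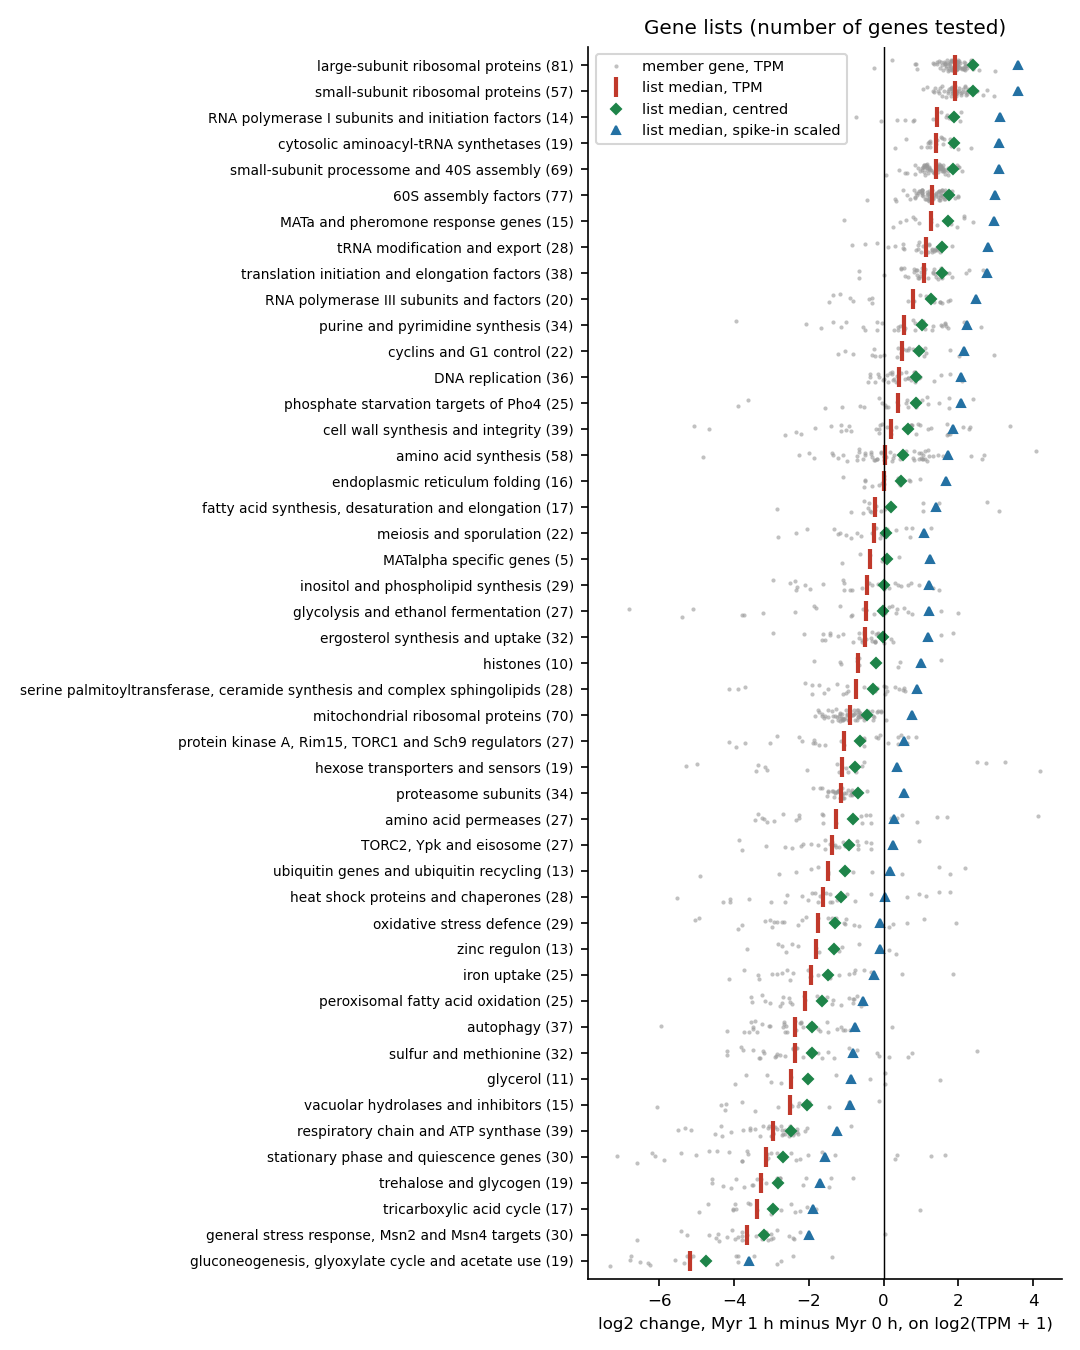
Log2 change of each gene tested in 47 gene lists, Myr 1 h minus Myr 0 h, as grey points, with the list's median on TPM (red bar), after median centring (green diamond) and after spike-in scaling (blue triangle). Lists are ordered by their median on TPM, with ribosomal protein lists at 1.92 and 1.91 at the top and gluconeogenesis at -5.18 at the bottom; lists between about 0 and -1.61 on TPM lie above 0 after spike-in scaling.

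The vehicle cultures passed through the same step, and most genes changed alike. In vehicle cultures 1749 genes rose and 3171 fell from 0 h to 1 h, with a median of -0.384. Changes with Myr and with vehicle had a Pearson's r of 0.964 over the 6006 genes, which are not independent replicates, and the 2 comparisons share no library. Of genes called in both, 4519 changed in the same direction and 32 in opposite directions. The difference between the changes (Myr minus vehicle) was called for few genes: 147 were higher with Myr (2.45% of those tested) and 231 lower (3.85%). These counts depended on the libraries and on the scale. Leaving out 1 library at a time gave 87 to 214 higher and 146 to 475 lower. Fewer than 100 were higher without Myr 0 h A (95) or B (90), Myr 1 h A (89) or B (95), or the B library of vehicle 0 h (87) or vehicle 1 h (92). The lower calls came to 475 without vehicle 0 h D, 153 without Myr 1 h C and 146 without vehicle 1 h C. The 40S and 60S assembly lists had medians of 1.39 and 1.31 with Myr, against 1.84 and 1.795 with vehicle. At 1 h the lists held on average 1.11% and 1.67% of TPM with Myr, and 1.09% and 1.68% with vehicle. At 0 h they held 0.429% and 0.691% with Myr, and 0.327% and 0.534% with vehicle. The mean shares were thus alike at 1 h and apart at 0 h, where vehicle libraries ranged over 0.226% to 0.434% for the 40S list. Of the genes of these lists, 2 of 69 and 6 of 77 had a change called lower with Myr, and 0 higher. Leaving out 1 library at a time gave 1 to 39 and 3 to 50 lower. Median centring gave 20 and 27 lower, and spike-in scaling 0 in both lists.

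**Figure D4:**
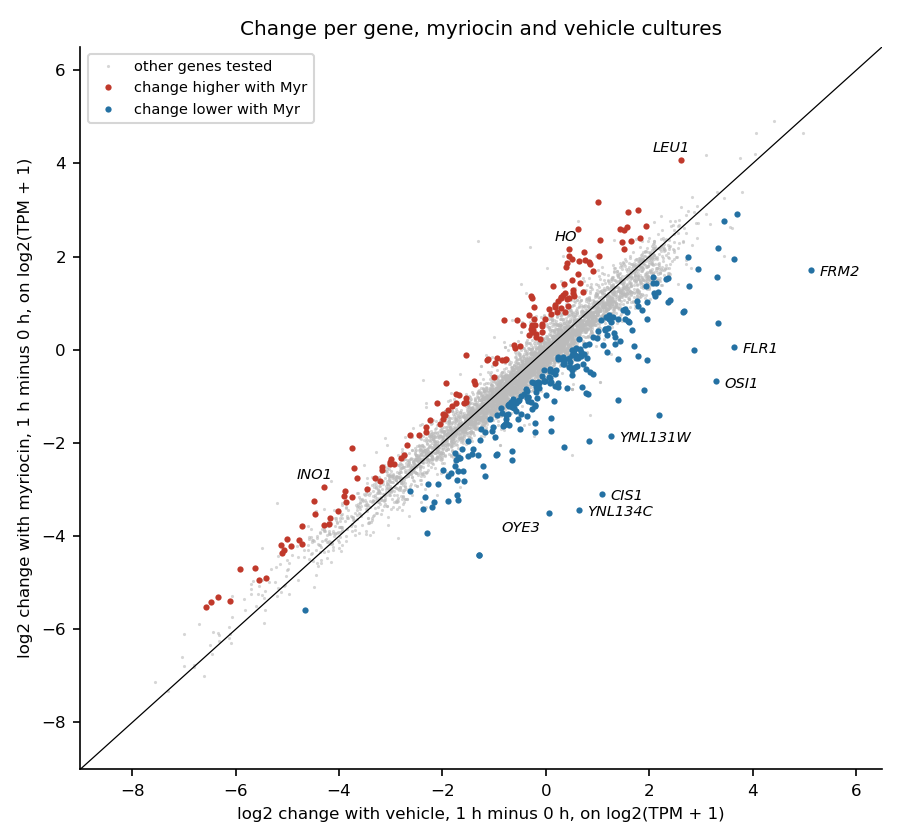
Log2 change of each of 6006 genes from 0 h to 1 h with Myr (vertical axis) and with vehicle (horizontal axis), with the line of equal change. Red points mark the 147 genes whose change was called higher with Myr, and blue points the 231 whose change was called lower; FLR1, OSI1 and FRM2 lie far below the line at the right, and HO and LEU1 above it.

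Genes whose change was lower with Myr include several known to respond to oxidants and reactive carbonyls. FLR1, a plasma membrane drug exporter and target of Yap1, had 19.9, 22.2 and 18.5 TPM in Myr 1 h libraries, against 19.6, 18.5 and 20.0 TPM in Myr 0 h libraries, and 324, 293 and 233 TPM in vehicle 1 h libraries, against 16.6, 30.5 and 19.8 TPM in vehicle 0 h libraries. Its difference of changes was -3.59 (SE 0.21, adjusted p = 5.44e-15 from limma), and the Myr change itself was not called. OSI1 had 18.4, 20.4 and 15.6 TPM in Myr 1 h libraries, against 28.3, 29.0 and 31.1 TPM in Myr 0 h libraries, and 331, 301 and 234 TPM in vehicle 1 h libraries, against 23.0, 35.7 and 27.7 TPM in vehicle 0 h libraries. FRM2, a nitroreductase-like gene, had 9.10, 7.02 and 8.55 TPM in Myr 1 h libraries, against 0.80, 1.88 and 3.25 TPM in Myr 0 h libraries, and 203, 185 and 146 TPM in vehicle 1 h libraries, against 1.70, 11.7 and 2.80 TPM in vehicle 0 h libraries. In all 3 genes the 1 h libraries with Myr lay below those with vehicle without overlap.

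In other genes the Myr groups fell while the vehicle groups did not. OYE3, an NADPH oxidoreductase (old yellow enzyme), had 1.64, 2.22 and 2.49 TPM in Myr 1 h libraries, against 35.4, 32.2 and 34.3 TPM in Myr 0 h libraries, and 43.4, 35.2 and 28.4 TPM in vehicle 1 h libraries, against 39.2, 30.3 and 32.6 TPM in vehicle 0 h libraries. CIS1 had 38.2, 24.4 and 40.3 TPM in Myr 1 h libraries, against 303, 336 and 249 TPM in Myr 0 h libraries, and 744.5, 574 and 494 TPM in vehicle 1 h libraries, against 323, 344 and 199.98 TPM in vehicle 0 h libraries. Its difference of -4.18 (SE 0.37) was the lowest of the named genes. YNL134C and YML131W, which encode proteins of the medium-chain dehydrogenase family, had differences of -4.08 and -3.11, and YLR460C one of -3.59.

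Of the 29 oxidative stress genes 9 had a change called lower with Myr, against 3.85% of all genes tested, and none was called higher. Leaving out 1 library at a time, 7 to 9 were called lower. After spike-in scaling 4 were, and 7 with only the 12 libraries compared in the fit. TRX2, GTT2, GSH1 and GPX2 are named here after their values were seen. TRX2, a thioredoxin, had 277, 273 and 306 TPM in Myr 1 h libraries, against 1527, 1294 and 891 TPM in Myr 0 h libraries, and 1543, 1373 and 968 TPM in vehicle 1 h libraries, against 1100.4, 1172 and 779.7 TPM in vehicle 0 h libraries. GTT2, a glutathione transferase, and GSH1, the first enzyme of glutathione synthesis, had differences of -1.85 and -1.53. GPX2, a peroxidase, rose with both treatments, to 219, 200.2 and 184 TPM in Myr 1 h libraries and to 690.1, 649 and 653 TPM in vehicle 1 h libraries, with a difference of -1.69.

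Genes whose change was higher with Myr include G1 and S-phase genes. HO, the mating type endonuclease gene expressed late in G1, had 33.3, 30.4 and 22.4 TPM in Myr 1 h libraries, against 5.05, 5.04 and 6.78 TPM in Myr 0 h libraries, and 12.8, 12.9 and 14.6 TPM in vehicle 1 h libraries, against 6.51, 14.3 and 9.48 TPM in vehicle 0 h libraries (difference 1.72, SE 0.28, adjusted p = 0.00011 from limma). TOS6, a cell wall protein gene, ACM1, an inhibitor of the anaphase promoting complex, and YOX1, a repressor of early cell cycle genes, had differences of 1.56, 1.46 and 1.43. CLB6 had 28.9, 30.4 and 33.5 TPM in vehicle 1 h libraries, against 6.89, 12.2 and 10.4 TPM in vehicle 0 h libraries, beside the Myr values above, and a difference of 1.36. CLN2, POL30 and PCL2 had differences of 1.38, 1.36 and 0.99. When the fit held only the 12 libraries compared, ACM1, CLN2 and POL30 were not called (adjusted p = 0.0804, 0.0586 and 0.0963 from limma).

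Both hours entered these differences. For CLN2 the vehicle 0 h libraries had 19.5, 48.1 and 35.0 TPM, where the Myr 0 h libraries had 17.1, 15.9 and 20.1 TPM. For POL30 the Myr 0 h libraries had 39.4, 33.6 and 45.7 TPM and the vehicle 0 h libraries 41.9, 125 and 74.8 TPM, so vehicle 0 h library A lay with the Myr libraries and libraries B and D above them. At 1 h the groups did not overlap, with 71.2, 67.1 and 51.9 TPM for CLN2 in Myr libraries, against 38.4, 40.01 and 50.2 TPM in vehicle libraries. Of the 22 cyclin and G1 genes 7 were called higher, CLN2, CLB6 and PCL2 among them, and the mitotic cyclin CLB2 lower (-0.66), against 2.45% and 3.85% of all genes. A fit with only the 12 libraries compared gave 3 higher and 0 lower, and spike-in scaling 4 higher and 0 lower. With only 1 library left out, 4 were called higher without Myr 0 h A, Myr 0 h B, Myr 1 h A, Myr 1 h B, vehicle 0 h B, vehicle 1 h A or vehicle 1 h B. The vehicle 0 h libraries agreed less well with each other (Pearson's r 0.974 to 0.981) than the Myr 0 h libraries (0.986 to 0.99), and the part of this in the differences was not tested.

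Other differences were of metabolism and stress genes. LEU1 and BAT1 had differences of 1.45 and 1.07, neither of them called when the fit held only the 12 libraries compared (adjusted p = 0.142 and 0.0636 from limma). For LEU1 vehicle 1 h libraries had 376, 377 and 413 TPM, against 45.2, 136 and 39.7 TPM in vehicle 0 h libraries, so that the vehicle 0 h level was higher than the Myr 0 h level in each library. BAT1 averaged 90.6 TPM in Myr 0 h and 166 TPM in vehicle 0 h libraries, and 572 and 474 TPM in those of 1 h. INO1 was at 25.8, 27.6 and 26.0 TPM in vehicle 1 h libraries, against 403, 655 and 589 TPM in vehicle 0 h libraries, and fell less with Myr, by a difference of 1.34 (SE 0.23, adjusted p = 0.000151 from limma). Both hours entered this difference. INO1 averaged 309 TPM in Myr 0 h and 549 TPM in vehicle 0 h libraries, and 38.9 and 26.5 TPM in those of 1 h. HSP26, HSP30, HSP12, STF1 and PBI2 also fell less with Myr, with differences of 1.07, 1.05, 1.23, 1.03 and 0.73. For HSP12, named after its values were seen, the 1 h level was 345, 341 and 310.3 TPM with Myr and 217, 197 and 197 TPM with vehicle. Of the 30 targets of Msn2 and Msn4 6 had a change called higher with Myr, HSP12 and HSP26 among them, and DDR48, SSA4 and GCY1 lower, at -0.81, -1.04 and -0.40, against 2.45% and 3.85% of all genes tested. Leaving out 1 library at a time gave 4 to 7 higher and 2 to 3 lower, and both spike-in scaling and a fit with only the 12 libraries compared gave 5 higher and 0 lower. The call of GCY1 was lost without 7 of the 12 libraries. The rule for the largest differences also took the small open reading frames YLR285C-A, YLR342W-A and YOR394C-A, at 2.16, 1.98 and 1.46, whose calls were lost without 7, 5 and 5 of the 12 libraries when each was left out in turn. ARN1 and IME1 fell further with Myr, with differences of -1.16 and -1.24, which were not called after spike-in scaling. ARN1 averaged 85.4 TPM in Myr 1 h and 892 TPM in Myr 0 h libraries, against 103 TPM in vehicle 1 h and 498 TPM in vehicle 0 h libraries. IME1 averaged 6.11 and 49.0 TPM in the same Myr groups, against 5.66 and 19.3 TPM with vehicle. Both genes thus stood higher in Myr than in vehicle libraries already at 0 h.

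Of the 28 sphingolipid genes 2 had a change called higher and 1 a change called lower with Myr, against 2.45% and 3.85% of all genes tested. None of the 3 calls held when the fit had only the 12 libraries compared (adjusted p = 0.0665 for YSR3, 0.107 for SUR2 and 0.159 for SCS7, from limma) or after spike-in scaling (0.441, 0.122 and 0.189). YSR3 had a difference of -0.94 (adjusted p = 0.00348 from limma), and SUR2 and SCS7 had differences of 0.56 and 0.45. The call of SUR2 was lost without Myr 0 h A, Myr 1 h A or vehicle 1 h A (adjusted p between 0.0502 and 0.0763). That of SCS7 was kept only without vehicle 0 h B, and adjusted p otherwise lay between 0.0508 and 0.12. LCB1, LCB2, ORM1, ORM2 and YPK1 had differences of -0.16, -0.14, 0.00, 0.02 and -0.24, none of them called. The eisosome gene LSP1 had a difference of 0.58 and the MATa gene BAR1 of 0.59.

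**Figure D5:**
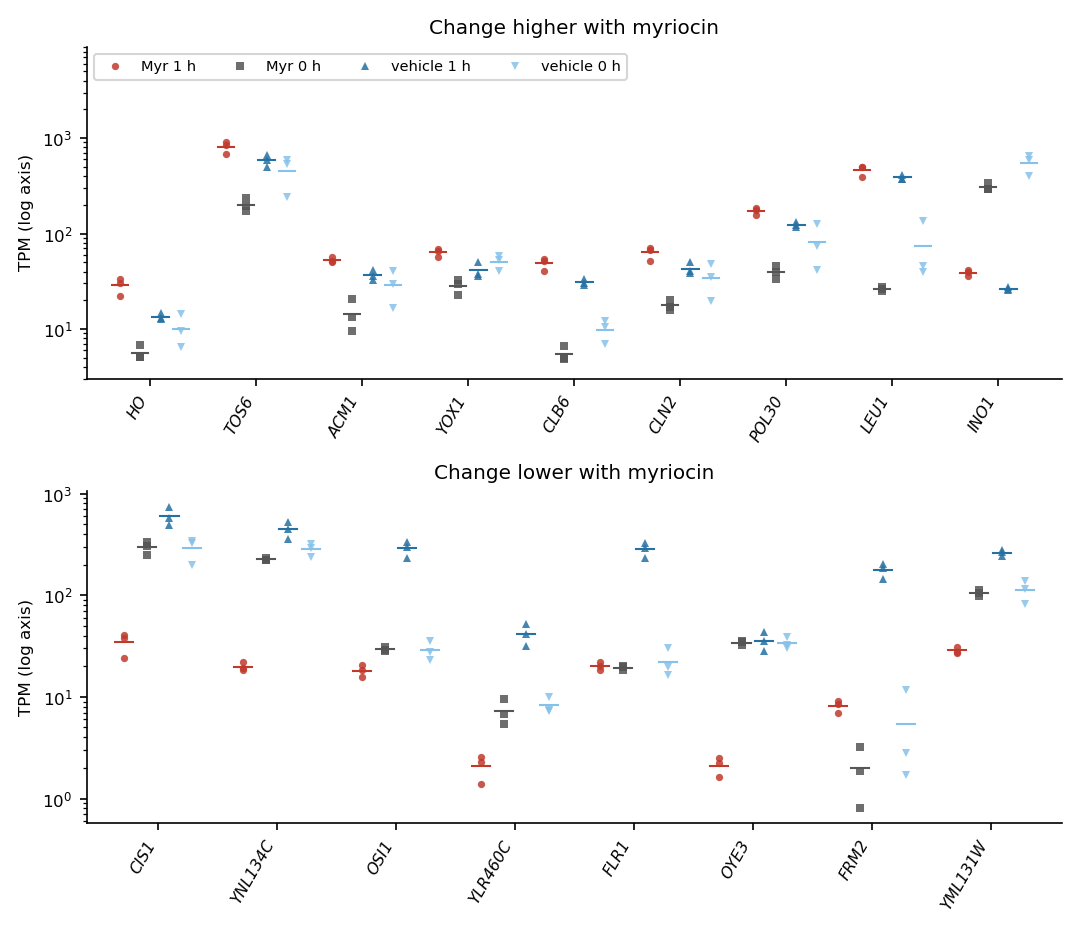
TPM (log axis) in each library of Myr 1 h, Myr 0 h, vehicle 1 h and vehicle 0 h for genes whose change was called higher with Myr (top) and lower with Myr (bottom), with means as lines. FLR1, OSI1 and FRM2 are high only in the vehicle 1 h libraries, and OYE3 is low only in the Myr 1 h libraries, at 1.64 to 2.49 TPM.

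Later Myr libraries show which of the large changes lasted. ANS1 averaged 5.67 TPM at 0 h, 199.6 TPM at 1 h, 9.67 TPM at 2 h, 4.06 TPM at 3 h and 2.16 TPM at 6 h. AQR1 averaged 11.2 TPM at 6 h. UTR2, HXT2 and GNP1 stayed up at 6 h, with means of 266, 289 and 170.2 TPM (n = 3 each), and CHA1 averaged 473 TPM. Of the genes that fell, PCK1, MLS1 and FBP1 averaged 2.99, 2.46 and 4.74 TPM at 6 h. ENO1 and GPD1, in contrast, averaged 483 and 347 TPM at 6 h. NOP1 and NOP56 averaged 482 and 261 TPM at 6 h, between their levels at 0 h and at 1 h. YPK1 averaged 86.8 TPM at 6 h, above its 0 h mean of 50.8 TPM. These later means are given as a description, without a test.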

How the data were processed

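The authors grew yeast with Myr or vehicle, extracted RNA from 5 A600 units of cells per sample, added spike-in RNA (mix 2 with Myr, mix 1 with vehicle) and made polyadenylated, stranded libraries (TruSeq Stranded mRNA), read for 151 cycles from each end on a HiSeq 4000. Reads were demultiplexed with bcl2fastq 2.17.1.14, trimmed with Trimmomatic 0.36 and quantified with Salmon 0.8.2 against the R64 transcriptome and 92 spike-in sequences. The deposited TPM values of the authors, transcripts per 1000000 over yeast genes and spike-ins, were used as given. They allow for transcript length but are relative within a library, and keep no depth.

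Libraries were grouped by the labels into 14 groups of 3 (Myr or vehicle, 7 hours). Of 6106 yeast identifiers 6103 matched RefSeq names. In R 4.3.3 limma 3.58.1 fitted 14 group means to log2(TPM + 1) of all 42 libraries with a variance trend. The contrasts were Myr 1 h minus Myr 0 h, vehicle 1 h minus vehicle 0 h, and the difference between them. The study's own model left out 0 h. Genes that averaged 1 TPM or more across 12 libraries were tested, with p adjusted after Benjamini and Hochberg and a threshold of 0.05. The fit was tested on simulated data. Spike-in scaling used the 34 spike-ins that averaged 1 TPM or more. Both hours of a treatment held the same mix.

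The members and the 47 gene lists were chosen with earlier results of these data known. Named genes were the 12 largest rises and 12 largest falls without overlap among called genes that averaged 10 TPM or more, up to 4 called members of each list, all sphingolipid genes with YPK1, UBI4, MUP1 and GCN4, and the 8 largest called differences from vehicle in each direction. The motif windows ran from 250 bases before to 50 after each start codon. Alternatives were pseudocounts of 0.1 and 10 TPM, a minimum of 10 TPM or none, no variance trend, only the libraries compared, median centring, spike-in scaling, the column letter as a block, and leaving out each library. Results for some members of the lists are not reported here.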

Additional observations from a re-analysis of the deposited data

Results flagged for a closer look

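For 42 genes named in the text the change from 0 h to 1 h differed between Myr and vehicle by limma's test of the difference itself (adjusted p under 0.05). Values are the change with Myr minus the change with vehicle on the log2 scale, over 3 libraries in each of the 4 groups.

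Among genes lower with Myr, CIS1 was at -4.18, YNL134C at -4.08, OSI1 at -3.97, YLR460C at -3.59, FLR1 at -3.59, OYE3 at -3.55, FRM2 at -3.42 and YML131W at -3.11. TRX2, GPX2, GTT2 and GSH1, which act on peroxides and glutathione, were at -2.42, -1.69, -1.85 and -1.53. IME1, ARN1 and YSR3 were at -1.24, -1.16 and -0.94. SSA4, DDR48, CLB2 and GCY1 were at -1.04, -0.81, -0.66 and -0.40. With each library left out in turn, GCY1 alone among these genes lost its call, without 7 of the 12 libraries (adjusted p up to 0.0726 from limma).

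Among genes higher with Myr, HO was at 1.72, TOS6 at 1.56, ACM1 at 1.46, YOX1 at 1.43, CLB6 at 1.36, CLN2 at 1.38, POL30 at 1.36 and PCL2 at 0.99. LEU1 and BAT1 were at 1.45 and 1.07, and INO1 at 1.34. HSP12, HSP26, HSP30, STF1 and PBI2 were at 1.23, 1.07, 1.05, 1.03 and 0.73. BAR1, LSP1, SUR2 and SCS7 were at 0.59, 0.58, 0.56 and 0.45. The small open reading frames YLR285C-A, YLR342W-A and YOR394C-A were at 2.16, 1.98 and 1.46.

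With only the libraries compared in the fit, 16 of the 42 were no longer called: ACM1 (adjusted p = 0.0804), LEU1 (0.142), CLN2 (0.0586), POL30 (0.0963), BAT1 (0.0636), BAR1 (0.0816), YSR3 (0.0665), SUR2 (0.107), SCS7 (0.159), YLR342W-A (0.104), YOR394C-A (0.086), YLR285C-A (0.245), CLB2 (0.086), DDR48 (0.0515), SSA4 (0.153) and GCY1 (0.102), all from limma. After spike-in scaling 11 were no longer called: ARN1, IME1, BAR1, LSP1, YSR3, SUR2, SCS7, CLB2, DDR48, SSA4 and GCY1.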

How the results depend on the processing

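The scale decided most counts. Median centring gave 2484 rises and 1277 at least 2-fold, against 1629 and 786 on TPM, with 1436 2-fold falls, and 588 higher and 470 lower differences from vehicle. Spike-in scaling gave 4080 rises (3236 at least 2-fold), 867 falls (572 at least 2-fold), 63 higher and 30 lower differences. With only the libraries compared, 48 differences were higher and 112 lower. The median over genes was -0.045 after median centring, -0.316 with a pseudocount of 10 TPM and 1.142 after spike-in scaling.

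Leaving out each library in turn gave 1511 to 1661 rises, 3185 to 3369 falls, 749 to 856 and 1979 to 2122 of at least 2-fold, a median of -0.52 to -0.422, 87 to 214 higher differences and 146 to 475 lower.

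Of 47 list medians 18 turned sign somewhere. After spike-in scaling the medians were 0.761 for mitochondrial ribosomal proteins, 0.361 for hexose transporters, 1.214 for glycolysis, 0.052 for heat shock, 0.536 for the proteasome, 0.168 for ubiquitin, 0.282 for amino acid permeases, 0.908 for sphingolipids, 1.407 for fatty acids, 0.244 for Ypk and eisosome, 1.185 for ergosterol, 1.229 for phospholipids, 1.005 for histones, 0.542 for protein kinase A and TORC1, 1.256 for MATalpha and 1.079 for meiosis. After median centring fatty acids stood at 0.21, phospholipids at 0.023, MATalpha at 0.083 and meiosis at 0.069. Leaving out each library, amino acid synthesis ranged over -0.02 to 0.184 (-0.02 without Myr 0 h A) and endoplasmic reticulum folding over -0.046 to 0.056. The second list turned to -0.046, -0.016, -0.021 and -0.004 without Myr 0 h A, Myr 0 h B, Myr 1 h A and Myr 1 h B.

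Of 179 named genes 14 turned sign after spike-in scaling, to 0.03 for MUP1, 1.461 for GCN4, 1.465 for SUR2, 0.09 for SCS7, 0.677 for LIP1, 0.726 for CSG2, 0.517 for CSH1, 1.089 for ISC1, 1.466 for LCB3, 0.687 for LCB4, 0.336 for LCB5, 0.176 for YSR3, 0.55 for HHT2 and 0.964 for OSI1. Median centring turned GCN4 (0.237), SUR2 (0.245) and LCB3 (0.267). The signs of these genes depend on where each scale sets its zero point.

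The labels number the replicates but the columns carry letters. Same-letter libraries of the 2 hours deviated from their group means with correlations of 0.05, 0.03 and -0.23. Libraries of different letters had correlations of -0.298 to 0.243. With 3 libraries in each group, these values cannot decide whether a letter marks 1 flask. For want of a replicate number, the letter was not taken as a pairing in the main fit. With the letter as a replicate block 1569 genes rose and 3244 fell (795 and 2078 at least 2-fold), and ORM1 was no longer called (adjusted p = 0.0694 from limma). Depth is unknown, so genes near 1 TPM are limited most.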
